A study of Mus musculus with 3 samples.

Results

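The interferon regulatory factor genes Irf1, Irf2, Irf3, Irf4, Irf5, Irf7, Irf8 and Irf9 were followed across 3 cytokine conditions in mouse CD4+ T cells. Every probe set annotated to exactly 1 of these symbols was taken, which gave 14 probe sets for 8 genes out of 18193 named genes on the array. No probe set shared a member with another gene. The cells were CD4+CD25- T cells from spleen and lymph node of female mice aged 6 to 8 weeks on the BALB/c background. All mice lacked both Stat6, which relays IL-4 signals, and T-bet, the Th1 transcription factor, so no condition had a wild-type counterpart here. All cells were activated for 2 days with plate-bound anti-CD3 (5 µg/ml) and anti-CD28 (1 µg/ml). The first condition added IL-6 (10 ng/ml) with TGFbeta (5 ng/ml), the next IL-6 (10 ng/ml) with IL-23 (10 ng/ml), and the last TGFbeta (5 ng/ml) alone. Each condition had 1 array and no replicate, so the values below describe 3 arrays, and no p-value was possible. The study set IL-6/TGFbeta against TGFbeta to look for genes of Th17 polarization, and against IL-6/IL-23 to single out those tied to IL-10.

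Interferon regulatory factors are transcription factors that share an amino-terminal DNA-binding domain with conserved tryptophans and bind GAAA repeats. Irf4 and Irf8 are the lymphoid and myeloid members, bind poorly alone, and pair with partners such as BATF-JUN or PU.1. Irf4 is required for Th17 differentiation in mice, while Irf8 has been described as a restraint on it. Irf1 is induced by interferon-γ, Irf2 can antagonize Irf1, Irf3 and Irf7 drive type I interferon genes, and Irf9 is the DNA-binding subunit of the interferon-induced complex ISGF3.

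The arrays were not on 1 scale as deposited, with median intensities of 28.1 for IL-6/TGFbeta, 17.8 for IL-6/IL-23 and 35.8 for TGFbeta, so levels below are quantile-normalized intensities in arbitrary units. A floor of 52.3, set from probe sets of genes restricted to other tissues, marks values too dim to order. The size rule called a difference between 2 arrays when it was at least 2-fold and the brighter array lay above the floor. The only available error was the spread of log2 ratios between probe sets of the same gene, an SD of 0.23 for IL-6/TGFbeta over TGFbeta, 0.29 for IL-6/TGFbeta over IL-6/IL-23 and 0.30 for IL-6/IL-23 over TGFbeta. This spread leaves out differences between cultures, mice and arrays. Stat6 and Tbx21, the gene of T-bet, gave signal on every array (Tbx21 118, 205 and 189.7 for IL-6/TGFbeta, IL-6/IL-23 and TGFbeta), and the deleted part of neither gene is stated in the labels, so these levels do not check the genotype. All 7 T cell identity genes on the array were above the floor on every array, and 0 of 5 B cell markers were above it on any.

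Irf8 and Irf5 were the members with a 2-fold difference between conditions, and both were highest with TGFbeta alone. Irf8, a factor best known in dendritic cells and B cells, read 4659 with IL-6/TGFbeta, 3315 with IL-6/IL-23 and 8816 with TGFbeta alone on its brighter probe set. On the second Irf8 probe set the levels were 1909, 1371 and 4058 for IL-6/TGFbeta, IL-6/IL-23 and TGFbeta. The order of the arrays was thus the same on both probe sets. IL-6/IL-23 lay 2.66-fold below TGFbeta on the brighter probe set (log2 ratio -1.41) and 2.96-fold below it on the other (-1.57), and 1.57% of all measured genes had a lower ratio than the brighter one. With IL-6/TGFbeta the shortfall against TGFbeta was 1.89-fold on the brighter probe set (-0.92), short of the 2-fold rule, and 2.13-fold on the other (-1.09). IL-6/TGFbeta in turn lay above IL-6/IL-23 by 0.49 and 0.48 log2 units on these probe sets, which is 1.67 times the probe-set SD for the brighter of them. In the deposited intensities, before any scaling, the brighter probe set read 4589, 2514 and 10641 for IL-6/TGFbeta, IL-6/IL-23 and TGFbeta, in the same order of arrays. The deposited array medians have this order too, so the unscaled order cannot check the Irf8 pattern. The Irf8 ratio of IL-6/IL-23 over TGFbeta was -2.08 on these unscaled intensities, where the median of all genes was -0.83. After median scaling it was -1.08, where the median of all genes was 0.12. The Irf8 ratio was past 2-fold in both. In cells measured in bulk, fewer cells of a type and less RNA per cell cannot be told apart.

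Irf5, a factor known for inflammatory cytokine induction in macrophages, was closer to the floor and its probe sets disagreed. The brighter probe set read 85.7 with IL-6/TGFbeta, 117 with IL-6/IL-23 and 258 with TGFbeta alone. It was 3.01-fold lower with IL-6/TGFbeta than with TGFbeta (-1.59) and 2.21-fold lower with IL-6/IL-23 than with TGFbeta (-1.14). IL-6/TGFbeta and IL-6/IL-23 differed by -0.45 on this probe set, and this sign turned to 0.16 without scaling. The other Irf5 probe set read 64.5 with IL-6/TGFbeta and was below the floor on the other arrays, so IL-6/TGFbeta was at least 1.23-fold above either of them. The lower level of Irf5 with IL-6/TGFbeta therefore rests on 1 probe set, and the mean of both ratios over TGFbeta was no lower than -0.64, a bound because the second probe set was below the floor with TGFbeta. Macrophage gene Mpeg1 moved with this probe set: it was below the floor on the IL-6/TGFbeta and IL-6/IL-23 arrays and read 153 with TGFbeta, so both were at least 2.92-fold lower. Of 9 myeloid and dendritic cell markers on the array, 2 were above the floor on any array, Mpeg1 and Csf1r. Csf1r was instead highest with IL-6/TGFbeta, at 79.4, and read 63.2 with TGFbeta and below the floor with IL-6/IL-23. The summed level of all 9, which takes in values below the floor, was 284 with IL-6/TGFbeta, 184 with IL-6/IL-23 and 331 with TGFbeta. The dendritic cell markers Itgax, Flt3 and Siglech were below the floor on every array. Whether myeloid cells had a part in the Irf5 or Irf8 levels was not tested.

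**Figure D1:**
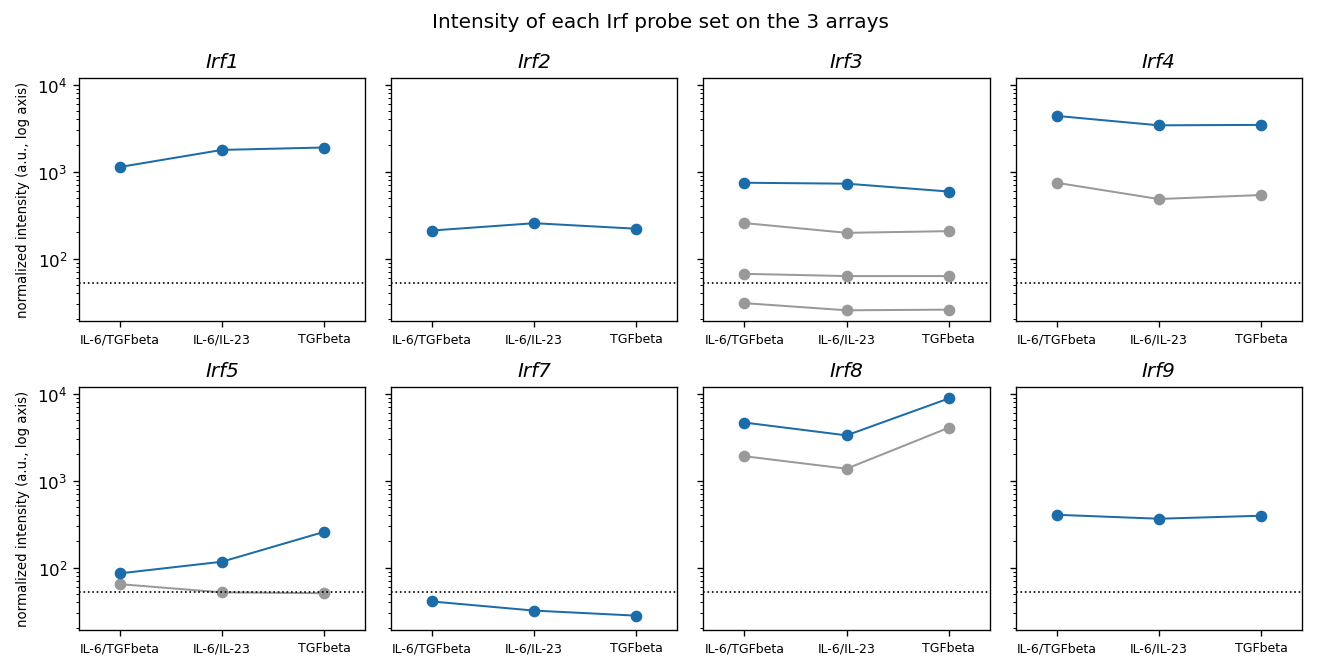
Normalized intensity (arbitrary units, log axis) of each probe set of the 8 interferon regulatory factor genes on the IL-6/TGFbeta, IL-6/IL-23 and TGFbeta arrays, 1 point per array; blue is the brightest probe set of a gene, grey the others, and the dotted line is the floor of 52.3. Both Irf8 probe sets and the brighter Irf5 probe set peak with TGFbeta alone, and Irf7 lies below the floor on all 3 arrays.

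Irf1 was lowest with IL-6/TGFbeta. Its single probe set read 1129.65 with IL-6/TGFbeta, 1778 with IL-6/IL-23 and 1894 with TGFbeta alone. IL-6/TGFbeta was 1.68-fold below TGFbeta (-0.75) and 1.57-fold below IL-6/IL-23 (-0.65), or 3.29 and 2.23 times the probe-set SD, but under 2-fold in both. IL-6/IL-23 and TGFbeta differed by less than that spread (-0.09). The sign of the Irf1 ratio held in both comparisons with the IL-6/TGFbeta array under every scaling tried, with -1.21 over TGFbeta and -0.24 over IL-6/IL-23 on unscaled intensities. For these pairs the unscaled medians of all genes were -0.41 and 0.42. Of all measured genes, 4.23% had a lower ratio than Irf1 for IL-6/TGFbeta over TGFbeta and 8.85% for IL-6/TGFbeta over IL-6/IL-23. The summed level of 5 CD8 T cell and NK cell markers was 245 with IL-6/TGFbeta, 387 with IL-6/IL-23 and 413 with TGFbeta. This sum takes in values below the floor. Of these markers 4 were above the floor on at least 1 array and Ncr1 on none. Cd8a, Cd8b1 and Eomes were each lowest with IL-6/TGFbeta, with Eomes below the floor there. Klrd1 went the other way, at 53.0 with IL-6/TGFbeta and below the floor on the other arrays. The part of these markers in the Irf1 levels was not tested.

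The sequences around annotated start sites of 4 members are printed here because they differ in matches to a STAT motif and to the motif of the family itself. IL-6 and IL-23 both act through STAT3, whose family binds the palindrome TTCNNNGAA (GAS), and interferon regulatory factors bind GAAANNGAAA (ISRE). Irf8 and Irf5 are shown as the members that differed 2-fold, Irf1 as a member that was lower with IL-6/TGFbeta by more than the probe-set spread, and Irf2 as a member with both motifs whose level hardly differed. The windows are RefSeq sequences of GRCm38.p6, plus strand, from 250 bases before to 50 bases after the start site: chr8:120736108-120736407 for Irf8, chr6:29526375-29526674 for Irf5, chr11:53769764-53770063 for Irf1 and chr8:46739495-46739794 for Irf2. Capitals mark GAS and ISRE matches.
Irf8: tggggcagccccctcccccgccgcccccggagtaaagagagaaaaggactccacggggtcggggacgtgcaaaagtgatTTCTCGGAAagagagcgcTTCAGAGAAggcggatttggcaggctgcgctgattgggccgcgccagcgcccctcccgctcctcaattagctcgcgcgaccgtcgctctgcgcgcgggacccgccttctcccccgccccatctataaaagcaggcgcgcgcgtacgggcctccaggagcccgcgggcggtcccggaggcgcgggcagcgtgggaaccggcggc
Irf5: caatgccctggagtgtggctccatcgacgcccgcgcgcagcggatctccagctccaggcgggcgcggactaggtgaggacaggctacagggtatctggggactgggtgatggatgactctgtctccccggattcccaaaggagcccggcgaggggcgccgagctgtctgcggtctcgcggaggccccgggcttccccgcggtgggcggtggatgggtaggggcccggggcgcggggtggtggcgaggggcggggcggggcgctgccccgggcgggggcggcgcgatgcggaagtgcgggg
Irf1: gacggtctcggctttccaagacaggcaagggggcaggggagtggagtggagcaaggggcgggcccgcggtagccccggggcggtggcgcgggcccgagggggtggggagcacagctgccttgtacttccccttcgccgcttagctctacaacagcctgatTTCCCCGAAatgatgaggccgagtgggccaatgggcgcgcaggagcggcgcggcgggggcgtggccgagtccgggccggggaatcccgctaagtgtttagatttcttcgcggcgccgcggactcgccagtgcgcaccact
Irf2: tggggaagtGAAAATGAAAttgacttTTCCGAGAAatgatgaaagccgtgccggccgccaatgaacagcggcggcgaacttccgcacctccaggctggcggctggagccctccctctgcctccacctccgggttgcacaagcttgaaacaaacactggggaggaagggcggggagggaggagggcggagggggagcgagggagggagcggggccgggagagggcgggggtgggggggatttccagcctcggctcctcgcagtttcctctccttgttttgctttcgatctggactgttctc

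In these windows Irf8 held 2 GAS matches, TTCTCGGAA and TTCAGAGAA, beginning 171 and 153 bases before the start site used. Irf1 held 1, TTCCCCGAA, 90 bases before the start. Irf8 and Irf1 each have a second annotated start, and those windows, not printed, held no match to any motif searched. Irf2 held the GAS match TTCCGAGAA at 224 bases and the ISRE match GAAAATGAAA at 241 bases before the start, and the Irf5 window held neither motif. That window surrounds an annotated start inside the Irf5 gene, whose listed 5' end is at base 29526130. The 5' end itself had no window, so it was not searched. RefSeq windows were found for all 8 members, 11 windows in all, and 3 of the 11 held GAS against 8.30% of 32851 mouse windows, while 1 held ISRE against 3.44%. An NF-κB type motif, GGGANNNCCC, occurred in the Irf8, Irf1 and Irf4 windows and in 5.55% of all windows. The other motifs were also searched on both strands. GGAANNGAAA (2.72% of windows) had 1 match in Irf2, overlapping the ISRE match, and TGANTCA (7.81%) had none in a member. Of the SMAD factor motifs, GTCTAGAC (0.213%) matched no member. The other, CAGACAG (7.73%), matched Irf5 on the minus strand, 88 bases before the start, and is not capitalized above. TTCNNNNGAA (6.95%) matched 1 Irf9 window. A match is a string of letters and not a shown binding site.

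Irf4, which pairs with BATF to act in Th17 cells, was well above the floor in every condition and differed by less than 2-fold. Its brighter probe set read 4374 with IL-6/TGFbeta, 3408 with IL-6/IL-23 and 3447 with TGFbeta, and the other read 744, 484 and 538 in the same order of conditions. Both probe sets were highest with IL-6/TGFbeta, by 0.34 and 0.47 log2 units over TGFbeta and by 0.36 and 0.62 over IL-6/IL-23, and neither reached 2-fold. The ratio of the brighter probe set over TGFbeta was 1.51 times the probe-set SD and turned to -0.10 on unscaled intensities. For Irf4, IL-6/IL-23 and TGFbeta differed by less than the probe-set spread on both probe sets (-0.02 and -0.15). Irf4 and Irf8, the closely related pair, thus differed in pattern: against TGFbeta alone, IL-6/IL-23 left Irf4 within the probe-set spread while Irf8 was 2.66-fold lower. On unscaled intensities the brighter probe sets gave -0.84 for Irf4 and -2.08 for Irf8 in that pair, where the median of all genes was -0.83. This contrast between the 2 genes has no replicate check.

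The remaining members, Irf9, Irf2, Irf3 and Irf7, were under 2-fold in every pair or below the floor. Irf9 read 405 with IL-6/TGFbeta, 364 with IL-6/IL-23 and 395 with TGFbeta, and all its ratios lay within the probe-set SD (0.04, 0.15 and -0.12 for IL-6/TGFbeta over TGFbeta, IL-6/TGFbeta over IL-6/IL-23 and IL-6/IL-23 over TGFbeta). On unscaled intensities the last of these was -1.08, past 2-fold, where the median of all genes was -0.83. Irf2 read 210.3, 255 and 220.4 on the same arrays, again within the spread in every pair. Irf3 read 745 with IL-6/TGFbeta, 727 with IL-6/IL-23 and 590.3 with TGFbeta on its brightest probe set. Its ratio over TGFbeta was 0.34 for IL-6/TGFbeta and 0.30 for IL-6/IL-23, and on unscaled intensities both turned negative (-0.13 and -0.60). Of its 3 further probe sets, 2 were above the floor and gave 0.31 and 0.09 for IL-6/TGFbeta over TGFbeta, but -0.06 and -0.0011 for IL-6/IL-23 over TGFbeta. Irf7, the amplifier of the type I interferon response, was below the floor on every array (40.7 with IL-6/TGFbeta, 32.0 with IL-6/IL-23 and 27.97 with TGFbeta), so no ratio was read.

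Counted by the 2-fold rule, 1 of 7 measured members, Irf5, was lower under IL-6/TGFbeta relative to TGFbeta, and 0 were higher. Over all measured genes 4.93% were called in this comparison, 2.75% higher and 2.18% lower. Between IL-6/TGFbeta and IL-6/IL-23, 0 of 7 members were called, against 7.49% of all genes (369 higher and 340 lower of 9470). For IL-6/IL-23 over TGFbeta 2 of 7 members, Irf5 and Irf8, were lower and 0 higher, where 7.17% of all genes were called, 3.66% higher and 3.51% lower. With 7 genes these counts are too small to set the family apart from other genes. The median ratio of the 7 members was -0.07, 0.04 and -0.09 in these comparisons, and that of all measured genes was 0.02, -0.04 and 0.06. Both comparisons against TGFbeta share that array, so a value peculiar to it would enter both.

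**Figure D2:**
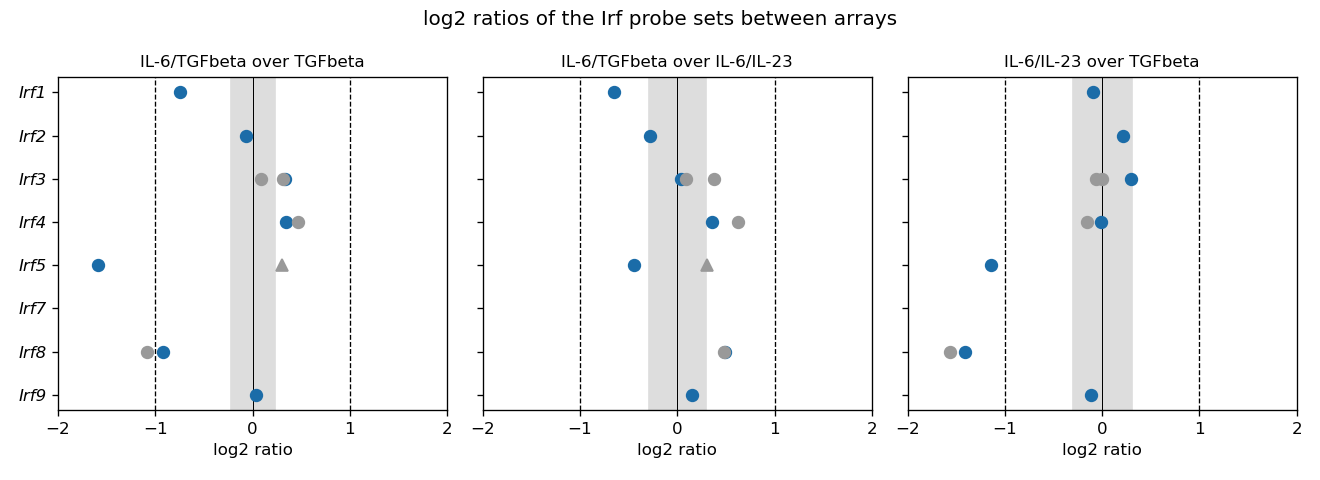
log2 ratios of each probe set for the 3 pairs of arrays; blue is the brightest probe set of a gene, grey the others, triangles are lower bounds with 1 array at the floor, the grey band is 1 probe-set SD and dashed lines mark 2-fold. Irf8 and Irf5 lie left of 2-fold for IL-6/IL-23 over TGFbeta, and Irf1 lies left of the band in both comparisons with IL-6/TGFbeta on top.

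Genes that resembled Irf8 and Irf5 were looked for among 8438 genes above the floor on all 3 arrays, by the Euclidean distance between log2 levels centred on their mean over 3 arrays. Closest to Irf8 were Homer1, a scaffold protein gene, at a distance of 0.034, Aim2, a cytosolic DNA sensor, at 0.073 and Ints6l at 0.078. Aim2 read 125 with IL-6/TGFbeta, 92.1 with IL-6/IL-23 and 228 with TGFbeta. Closest to the brighter Irf5 probe set were L3mbtl3 at 0.027, the semaphorin gene Sema4a at 0.052 and Iigp1, an interferon-induced GTPase gene, at 0.078. Iigp1 read 1548 with IL-6/TGFbeta, 2227 with IL-6/IL-23 and 4568 with TGFbeta. With 3 arrays such closeness is easily met among so many genes, and these matches describe shape only.

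Genes around the family were then described from lists of partners, upstream signals and reported targets. Their counts are to be read beside the shares of all genes called in the same pair, given above. Targets of IRF1 and interferon-γ, mostly genes of antigen processing and of guanylate-binding and immunity-related GTPases, were on the low side with IL-6/TGFbeta. Of 21 measured, 3 were at least 2-fold lower with IL-6/TGFbeta than with TGFbeta and 0 were higher, with a median ratio of -0.42 against 0.02 for all genes. The 3 were Cd274, which encodes PD-L1 (-2.52), Gbp6 (-1.99) and Iigp1 (-1.56). For IL-6/TGFbeta over IL-6/IL-23, 6 of 23 were lower and 0 higher (median -0.37 against -0.04 for all genes), among them Cd274 (-2.48), Gbp7 (-2.29), Gbp6 (-1.99) and Casp4, an inflammatory caspase gene that was at least 5.36-fold lower. On unscaled intensities the median over IL-6/IL-23 turned to 0.05, while that of all genes was 0.42. IL-6/IL-23 over TGFbeta gave 4 higher and 1 lower of 23, with a median of -0.02. Ifng itself read 74.0 with IL-6/TGFbeta, 229 with IL-6/IL-23 and 125 with TGFbeta. Irf1 and Ifng were thus both lowest with IL-6/TGFbeta. The list mixes targets of both, and the part of either in the target levels was not tested.

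Targets of the IRF9 complex ISGF3 numbered 35 on the array, of which 21 were above the floor on at least 1 array. Of these, 19 were measured for IL-6/TGFbeta over TGFbeta, with 0 higher and 2 lower, Ifih1 (-1.73) and Ifitm2 (-1.63). In the pair IL-6/TGFbeta over IL-6/IL-23, 1 of 20 was higher, Ifi35 (1.25), and 4 were lower, namely Ifitm3 (-4.40), the RNA sensor gene Ifih1 (-3.53), Ifitm2 (-3.35) and Oas3 (at least 2.44-fold lower). For IL-6/IL-23 over TGFbeta, 5 of 21 were higher, led by Ifitm3 (5.04) and Ifih1 (1.80), and 1 was lower. Some, such as Mx1, Mx2, Ifit1 and Oas1a, were below the floor on every array, as Irf7 was. Others, 16 of the 35, were above it on every array, among them Ifit2, Bst2, Zbp1 and Ifi47. The high IL-6/IL-23 values of Ifitm2, Ifitm3 and Ifih1 were thus not shared by the whole list, whose median was 0.14 against 0.06 for all genes.

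Several partners and signals of the family passed the 2-fold rule. Batf, the AP-1 partner of Irf4, read 1168 with IL-6/TGFbeta, 1524 with IL-6/IL-23 and 386 with TGFbeta, while the brighter Irf4 probe set stayed within 0.36 log2 units across these arrays. Ikzf3, which encodes the Ikaros family factor Aiolos, was higher with IL-6/TGFbeta than with TGFbeta (2.06) and than with IL-6/IL-23 (2.62). The transcription factor genes Maf (2.09) and Bcl6 (1.32), and Nfatc2, a calcium-regulated NFAT partner (1.06), were also above their TGFbeta level with IL-6/TGFbeta. Of 13 measured partners, 5 were higher and 1, Foxp3 (-1.10), was lower in that comparison (median 0.30 against 0.02 for all genes). Spi1 and Spib, which encode the ETS partners of Irf8 in myeloid and B cells, were at or near the floor: Spi1 read 54.3 with IL-6/TGFbeta and was below it on the other arrays, and Spib was below it on all 3. Of 10 measured genes of nucleic acid sensing upstream of Irf3, Irf5 and Irf7, 3 were lower with IL-6/TGFbeta than with TGFbeta, which were Ifih1, the kinase gene Ikbke (-1.51) and Tank, an adaptor of the TBK1 kinase (-1.43), and 0 were higher. Irak1 and Traf6, which relay Toll-like receptor signals, were lower with IL-6/IL-23 than with TGFbeta (-1.87 and -1.46). Of 13 measured genes of interferon receptor signalling, 0 were called for IL-6/TGFbeta over TGFbeta, and over IL-6/IL-23 Ifngr2, a chain of the interferon-γ receptor, was higher (1.56) and Ifng lower (-1.63). Among 9 related genes and regulators, Irf2bp2 and Irf2bpl, genes named for IRF2 binding, were higher with IL-6/TGFbeta than with IL-6/IL-23 (1.15 each). In the same pair Irf2bp1 was not called (-0.25), Irf2 itself stood at -0.28, and Peli1, a ubiquitin ligase gene, was lower (-1.03).

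Reported IRF4 targets in T cells were called in all 3 pairs. Of 17 measured, 8 were higher and 1 was lower with IL-6/TGFbeta than with TGFbeta (median 0.88 against 0.02 for all genes), including Il21 (at least 44.4-fold) and Il10 (4.01). For IL-6/TGFbeta over IL-6/IL-23, 5 of 17 were higher and 2 lower, with a median of -0.02. Il9 (at least 37.75-fold) and Ccr8 (at least 10.3-fold) were among the 5, and Gata3 was at least 2.29-fold lower. The third pair, IL-6/IL-23 over TGFbeta, had 9 of 18 higher and 5 lower (median 0.62 against 0.06 for all genes). The list was drawn up with earlier results of these arrays known, and several members are shared with the partner list.

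**Figure D3:**
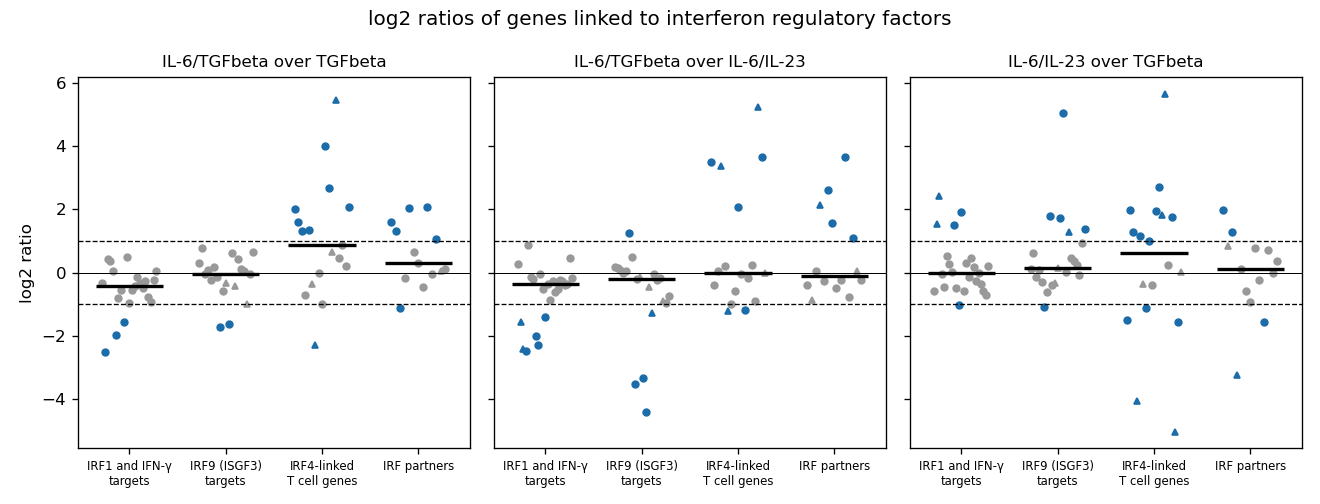
log2 ratios of the measured genes of 4 lists for the 3 pairs of arrays; each point is a gene, blue where it is at least 2-fold apart and grey otherwise, triangles are bounds, black bars are list medians and dashed lines mark 2-fold. The median of IRF1 and IFN-γ targets is -0.42 for IL-6/TGFbeta over TGFbeta and -0.37 for IL-6/TGFbeta over IL-6/IL-23.

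**Figure D4:**
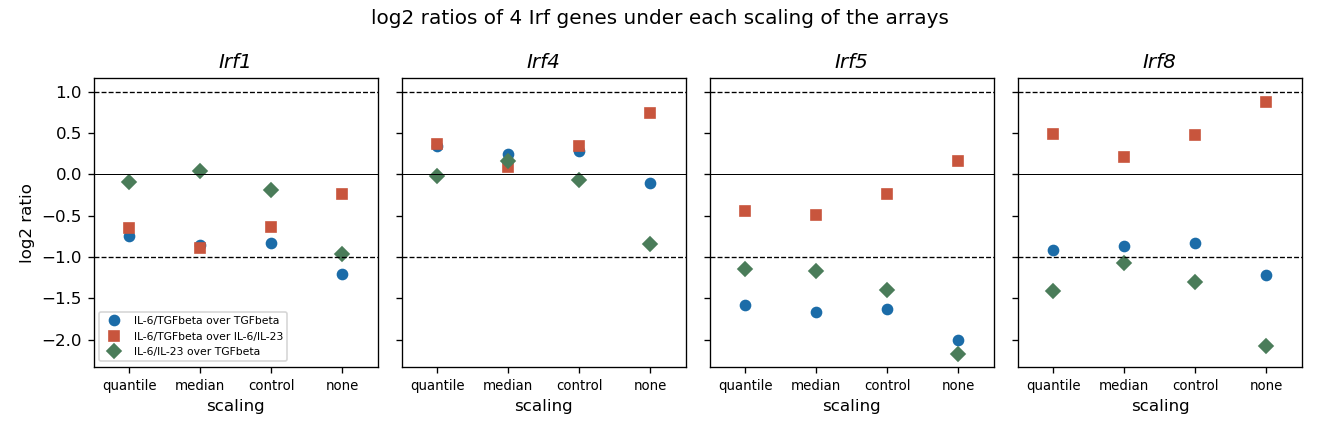
log2 ratios of Irf1, Irf4, Irf5 and Irf8 (brightest probe set) under quantile, median, hybridization-control and no scaling of the arrays, for the 3 pairs of arrays; dashed lines mark 2-fold. Irf8 keeps its sign in all pairs, Irf1 in both pairs with IL-6/TGFbeta on top, and Irf4 for IL-6/TGFbeta over TGFbeta turns from 0.34 to -0.10 without scaling.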

How the data were processed

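The authors deposited a linear intensity for each probe set on each array, from biotinylated cRNA prepared by the Affymetrix protocol, per the labels. Their probe summarization and scaling were not given in the sources used here. Control probe sets (64 of 45101) were left out, log2 intensities were quantile normalized (limma 3.58.1, R 4.3.3), and the probe set of highest mean stood for each gene. Quantile normalization removes any real difference in total mRNA. Probe sets with 1 gene symbol numbered 34945, with several genes 932, and unnamed here 9160. The floor came from 89 probe sets of 55 tissue-restricted genes, at their 95th percentile. Lower values were raised to it. The calls were tested on simulated data with planted changes larger than 2-fold, in genes well above the floor. Calls close to 2-fold or close to the floor were not checked in this way. Named genes were all members, up to 4 called genes per list and comparison, list genes whose role beside a member is described, and 3 nearest genes per called member. Members and lists were chosen with earlier results of these data known. Replicates, tests and p-values were not possible with 1 array per condition. The number of arrays limits the precision.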

Additional observations from a re-analysis of the deposited data

How the results depend on the processing

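No paired analysis was possible because each condition had 1 array, and no array could be left out. The alternatives were median, hybridization-control and no scaling, floors at the 99th and 75th percentiles, averaged probe sets, and a 1.5-fold rule. Of 125 member ratios under the first 6, 100 moved by less than the probe-set SD. The few called ratios, Irf5 in both comparisons with TGFbeta alone and Irf8 for IL-6/IL-23 over TGFbeta, kept their sign. Among ratios not called, Irf3 changed sign in every pair, and Irf1, Irf2, Irf4, Irf5 and Irf9 did so in some pairs. Of the measured members, Irf8 alone kept its sign in every pair. The count of members called for IL-6/TGFbeta over TGFbeta was 3 without scaling (Irf1, Irf5 and Irf8) and 3 at 1.5-fold, against 1, and for IL-6/TGFbeta over IL-6/IL-23 it was 1 at 1.5-fold (Irf1), against 0. With the mean of probe sets the count over TGFbeta was still 1, but the gene was Irf8 (-1.004) in place of Irf5 (a bound, no lower than -0.64). For IL-6/IL-23 over TGFbeta the count was 3 without scaling, against 2, with Irf9 added (-1.08). Counts of all genes, in the order IL-6/TGFbeta over TGFbeta, IL-6/TGFbeta over IL-6/IL-23 and IL-6/IL-23 over TGFbeta, were 459, 709 and 672. They were 829, 1223 and 3379 without scaling, 1389, 2017 and 1833 at 1.5-fold, and 870, 1335 and 1189 at the lower floor, and at the higher floor the first was 300.0. The share of these called genes that was higher was 55.8%, 52.0% and 51.0%. It was 44.4%, 37.4% and 53.6% after median scaling, 46.9%, 64.1% and 33.3% after control scaling, and 15.2%, 89.4% and 2.397% without scaling, which moved the median ratio of all genes to -0.41, 0.42 and -0.83. Median scaling moved the median for IL-6/TGFbeta over IL-6/IL-23 to -0.20. Signal over background limits Irf5 and Irf7: Irf7 could be read at the lower floor alone, at 0.54 for IL-6/TGFbeta over TGFbeta.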
